A study of Mus musculus with 8 samples.

Results

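The circadian clock genes described here were 10 genes of the molecular clock: Arntl (Bmal1), Clock and Npas2, Per1, Per2 and Per3, Cry1 and Cry2, Nr1d1 and Dbp. They were found by gene name in the scanner output of 8 mouse kidney arrays, and 24 of the 56605 probes on the array carried 1 of these names. The 10 genes were chosen with their levels on these arrays already known, so the levels are given as a description with no test. A probe was used where the scanner software called its signal well above the local background in both mice of 1 group or more. That left 19 of the 24 probes and 9 of the 10 genes, among 21264 genes in all. The gene left out was Npas2, whose only probe was well above background on 2 of 8 arrays.

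The study asked what a synthetic copy (mimic) of the microRNA miR-5100 does in the kidney of mice with ischaemia-reperfusion injury (IRI), an acute injury in which blood flow is stopped and then restored. The mimic group (mice 6 and 7) and the control-miRNA group (mice 1 and 5) each had 2 mice. They received 5 nmol of miR-5100 mimic or of an unrelated control miRNA, carried on polyethyleneimine nanoparticles, by tail vein 2 days before surgery. Both groups then had the right kidney removed and the left renal vessels clamped for 45 min. The IRI group (mice 30 and 34) had the same surgery with no injection, and the sham group (mice 1 and 4) had only a midline incision of the abdomen. Sham mice kept the right kidney, so the loss of that kidney and the clamping cannot be told apart. RNA came from the left kidney 24 h after surgery in all 4 groups. The hour of day of surgery and of kidney removal, the strain, the age and the sex are not given in the sources used here. Since clock genes swing with the hour of day, and no group was sampled at a second hour, a change of phase, a change of amplitude and a change of mean level cannot be told apart in these data.

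In the clock of mammals, BMAL1 pairs with CLOCK or NPAS2 on E-box sequences and switches on the Per, Cry, Nr1d1 and Dbp genes. PER and CRY proteins then shut that pair down, while REV-ERBα, the product of Nr1d1, represses Arntl through RORE sequences. DBP is a transcription factor that carries the rhythm to output genes through D-box sequences. Transcripts of Arntl and Npas2 therefore run nearly opposite in phase to those of Nr1d1 and Dbp. In the kidney the clock is known for its part in the daily rhythm of sodium transport and blood pressure.

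The levels below are log2 of the processed signal minus the 75th percentile of the same array, so 0 is the level that 75% of spots do not reach. A difference of 1 is a 2-fold difference, and its error is limma's moderated standard error (SE), from a fit over all 8 arrays. The levels of different genes are not set against each other, because each probe has its own efficiency. On that scale the arrays' own 75th percentiles were 308 and 242 in the mimic, 500 and 416 in the control-miRNA, 468 and 600 in the IRI and 408 and 476 in the sham arrays. The share of spots called above background ran from 53.2% to 58.8%. The mimic arrays were thus the dimmest. Fits with brightness as a covariate are given below for some differences of Arntl, Per3 and Dbp, not for every clock gene difference. Kidney markers were present on every array: 15 proximal tubule genes had a mean log2 level of 4.45 and 5.02 in mimic, 4.68 and 5.01 in control-miRNA, 4.70 and 4.96 in IRI and 6.48 and 6.50 in sham kidneys. The mean over 10 tubular injury genes was 4.82 and 4.04 in mimic, 4.92 and 4.61 in control-miRNA, 4.82 and 4.71 in IRI and -0.52 and -0.22 in sham kidneys. These are whole kidneys, so fewer cells of a type and less RNA per cell cannot be told apart.

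In outline, Dbp and Nr1d1 were lower in all 6 injured kidneys than in both sham kidneys, and lower in the 4 injected kidneys than in the 4 without an injection. Per3 was lower in all 6 injured kidneys than in both sham kidneys. Arntl was higher in both mimic kidneys than in any of the other 6, and Cry1 was higher in the 4 injected kidneys than in the 4 others. The 4 injected arrays filled row 2 of the slide and the 4 uninjected arrays row 1, so slide row and injection cannot be told apart in any difference of a mimic or control-miRNA group from IRI or sham, those of Cry1, Nr1d1 and Dbp included. Clock, by its brightest probe, ranged over 0.27 across the 8 arrays. The plot of clock gene levels by mouse shows these patterns.

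**Figure D1:**
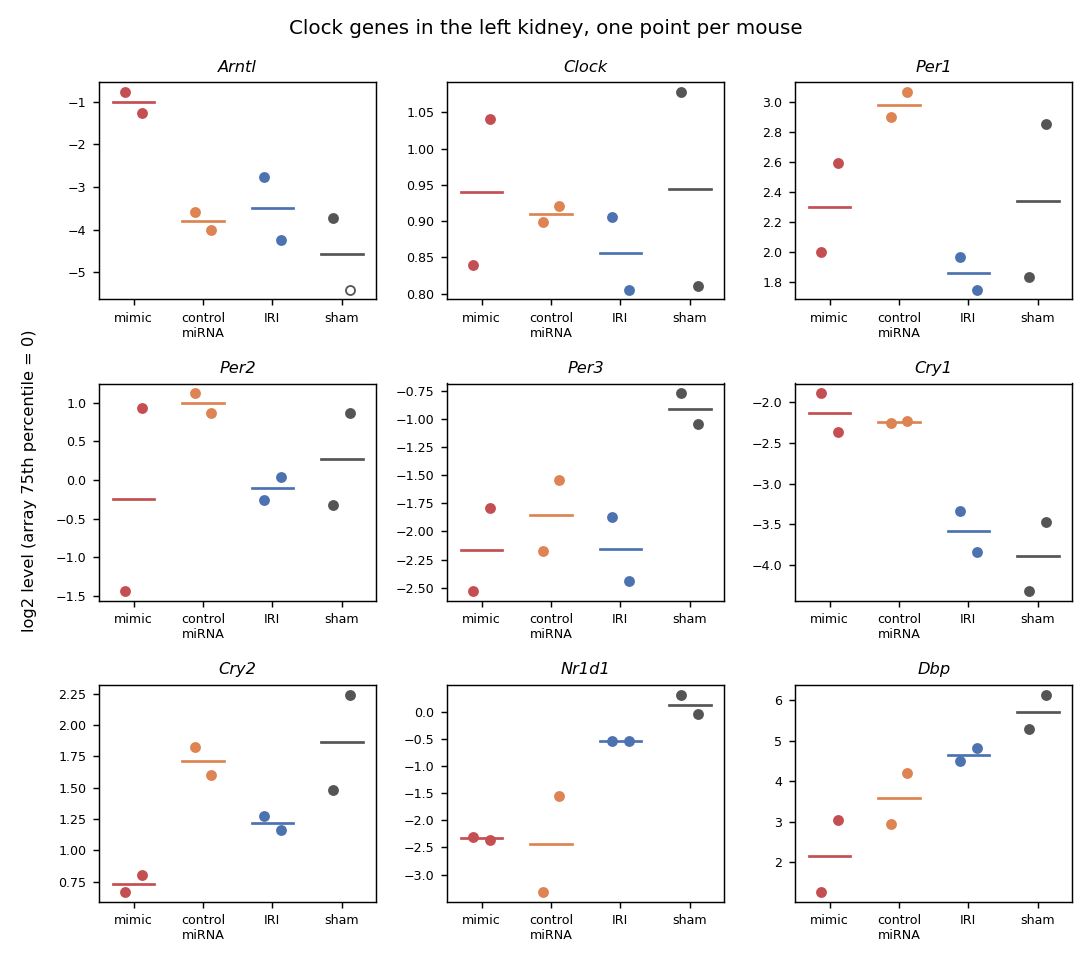
Log2 level (array 75th percentile = 0) of the 9 clock genes that passed the background filter, by the brightest probe of each, with 1 point per mouse and a bar at the mean of 2 mice. Groups run mimic, control miRNA, IRI and sham, an open point is a signal not well above background, and each panel has its own vertical scale, which spans under 0.3 for Clock and over 4 for Dbp.

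Arntl encodes BMAL1, the activator without which the clock stops in mice. The sequences of its 3 usable probes are given because the probes differed in the size of the mimic difference. Each has 60 bases, and the positions are on the plus strand of mouse build mm9. The first lies at chr7:120435023-120436706, where its 60 bases stretch over 1684 bases of genome and so cross an intron. The others lie at chr7:120439030-120439089 and chr7:120456978-120457037. In transcript NM_007489 the 3 start at bases 1027, 1262 and 2245.
A_66_P127371: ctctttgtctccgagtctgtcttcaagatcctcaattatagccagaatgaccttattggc
A_55_P2735445: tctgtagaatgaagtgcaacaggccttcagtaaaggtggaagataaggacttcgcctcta
A_52_P267651: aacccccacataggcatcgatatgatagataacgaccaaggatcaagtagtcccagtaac

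By A_66_P127371, the brightest of the 3, the Arntl level was -0.77 and -1.25 in the mimic, -3.59 and -4.02 in the control-miRNA, -2.76 and -4.24 in the IRI and -3.73 and -5.41 in the sham kidneys. Both mimic kidneys stood above the other 6, which overlapped between groups. The difference was 2.79 ± 0.65 (SE, n = 2 each) in mimic over control-miRNA, or 6.92-fold, and 2.49 ± 0.65 in mimic over IRI. Against sham, mimic kidneys were 3.56 ± 0.65 higher, control-miRNA kidneys 0.77 ± 0.65 and IRI kidneys 1.07 ± 0.65. Sham mouse 4 was not well above background, so the sham mean rests on 1 of 2 arrays with a measured level. Without sham mouse 4 the IRI difference was 0.23.

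The second probe, A_55_P2735445, gave -2.13 and -2.35 in the mimic, -3.91 and -4.62 in the control-miRNA, -3.62 and -4.47 in the IRI and -4.35 and -5.53 in the sham kidneys. It put both mimic kidneys above the rest again, with a difference of 2.02 in mimic over control-miRNA. The third, A_52_P267651, gave -2.57 and -3.69 in the mimic, -3.00 and -4.55 in the control-miRNA, -2.90 and -3.57 in the IRI and -3.70 and -5.04 in the sham kidneys. By this probe the mimic kidneys overlapped the control-miRNA and IRI kidneys, and the difference in mimic over control-miRNA was 0.64. It was well above background on 5 of 8 arrays, and mimic mouse 7 was not among them. The remaining probe, A_52_P24690, was well above background on 0 of 8 arrays and has no measured level. Over the 8 arrays the first and second probes ran together (Pearson r = 0.99), while the third had r of 0.70 and 0.73 with them.

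**Figure D2:**
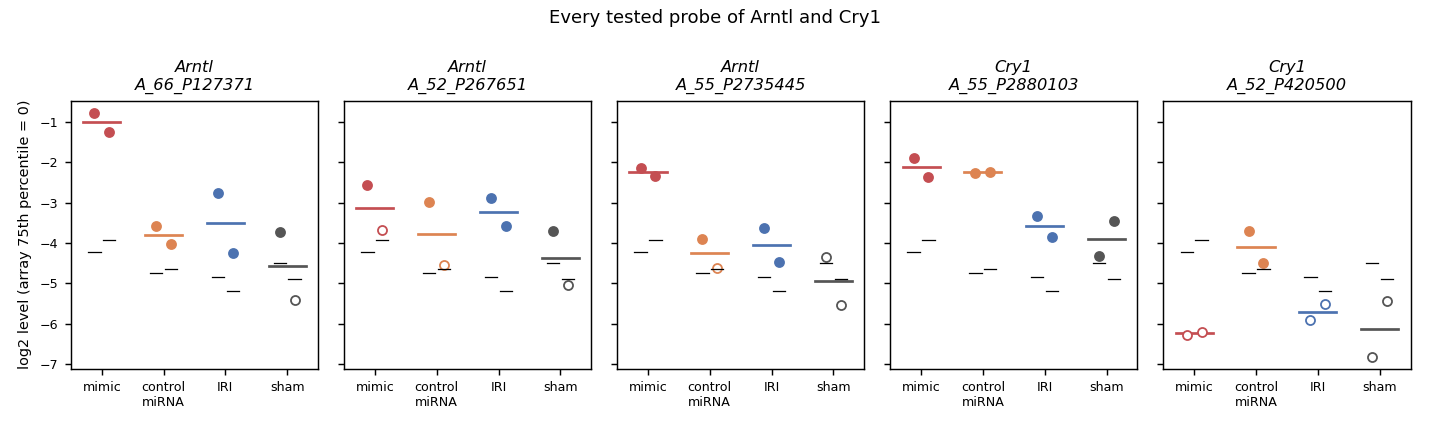
Log2 level (array 75th percentile = 0) of the 3 Arntl probes and 2 Cry1 probes that passed the background filter, with 1 point per mouse, groups running mimic, control miRNA, IRI and sham, and a bar at the mean of 2 mice. Open points are not well above background and each thin black tick is the lowest log2 level called well above background on that array; A_66_P127371 and A_55_P2735445 set both mimic kidneys above the rest, A_52_P267651 does not, and Cry1 probe A_52_P420500 is above background only in the control-miRNA kidneys.

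The Arntl signals were low. The processed signal of A_66_P127371 was 180 and 101 in the mimic, 41.6 and 25.7 in the control-miRNA, 69.1 and 31.7 in the IRI and 30.8 and 11.2 in the sham arrays, before any scaling. The mimic arrays were thus highest even though they were the dimmest arrays, and dividing by their lower 75th percentile widened the gap. The Arntl level had a correlation of -0.79 with array brightness over the 8 arrays. With brightness as a covariate the difference in mimic over control-miRNA was 1.54 and in mimic over IRI 0.87. With the signal corrected for background by normexp, which compresses low signals, the mimic over control-miRNA difference was 1.67, and with the mean over the 3 usable probes it was 1.82. Markers of other cell types moved with the mimic group too. In mimic against IRI kidneys all 8 endothelial and all 8 macrophage markers were higher. Of these, 5 and 4 had an adjusted p of at most 0.05 (limma), beside 10.5% of all genes. These calls were lost with brightness as a covariate. The mean over the endothelial list was 0.22 and 0.55 in mimic, -0.42 and -0.42 in control-miRNA, -0.42 and -0.40 in IRI and 0.02 and 0.26 in sham kidneys. The parts of array brightness and of these cells in the Arntl difference were not tested beyond these values.

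RefSeq (GRCm38.p6) gives 2 start sites for Arntl, and 300 bases around each start were searched on both strands. Each window runs from 250 bases before to 50 after the start. The letters searched were CACGTG (E-box), CACGTT (E-prime box), TTATGTAA (D-box) and AANTN followed by GGTCA (RORE, the element bound by REV-ERBα). None of these 4 patterns can be counted as another. The window of the second Arntl start is shown because it held a RORE match, in capitals, 28 bases into the transcript. It lies at chr7:113207261-113207560 on the plus strand.
Arntl: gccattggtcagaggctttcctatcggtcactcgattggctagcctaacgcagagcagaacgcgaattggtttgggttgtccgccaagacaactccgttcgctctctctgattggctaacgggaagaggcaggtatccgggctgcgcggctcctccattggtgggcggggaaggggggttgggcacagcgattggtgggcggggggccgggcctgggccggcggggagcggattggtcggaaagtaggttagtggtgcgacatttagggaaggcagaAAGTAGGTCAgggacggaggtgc
Of 32851 RefSeq promoter windows, 0.606% held a RORE match, 0.938% a D-box, 4.68% an E-prime box and 7.15% an E-box. Among the clock genes 9 of 10 had a window in the table (Per2 had none), and 6 held at least 1 match. A match is a description of the letters and shows no binding.

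Clock encodes the partner of BMAL1. Its brightest probe gave 0.84 and 1.04 in the mimic, 0.90 and 0.92 in the control-miRNA, 0.91 and 0.81 in the IRI and 1.08 and 0.81 in the sham kidneys. All groups overlapped, and each of the 6 differences between groups lay between -0.09 and 0.08, with an SE of 0.17. A second probe, A_52_P334670, gave 0.09 and 0.25 in the mimic, 0.35 and 0.17 in the control-miRNA, 0.34 and 0.15 in the IRI and -0.24 and -0.47 in the sham kidneys. By that probe the 6 injured kidneys stood above both sham kidneys, by 0.53 in mimic, 0.62 in control-miRNA and 0.60 in IRI kidneys. The 2 Clock probes did not run together over the 8 arrays (r = 0.06). Npas2, which can stand in for CLOCK, was well above background only in mimic mouse 6 and IRI mouse 30, at -2.45 and -3.84.

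Per1, Per2 and Per3 encode the period proteins, which enter the nucleus with the cryptochromes and repress BMAL1 and CLOCK. Per1 was 2.00 and 2.60 in the mimic, 2.90 and 3.07 in the control-miRNA, 1.96 and 1.75 in the IRI and 1.83 and 2.85 in the sham kidneys. Both control-miRNA kidneys were highest and both other injured groups overlapped sham, whose 2 mice were 1.02 apart. Per1 in control-miRNA kidneys was 1.13 ± 0.36 (SE, n = 2 each) above IRI kidneys. Per2, by the brighter of its 2 usable probes, was -1.43 and 0.93 in the mimic, 1.12 and 0.86 in the control-miRNA, -0.25 and 0.04 in the IRI and -0.32 and 0.87 in the sham kidneys. By this probe the mimic mice were 2.36 apart, more than any 2 group means. No difference by it that involves the mimic group thus exceeded the spread between mice. The 2 Per2 probes had r of 0.54 over the 8 arrays. Per1 and Per2 had a correlation of 0.79 over the 8 arrays, which share 1 slide and differ in brightness.

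Per3 was lower than in both sham mice in every mouse of the 3 injured groups, which Per1 and Per2 were not. Its brightest probe, A_66_P137063, gave -2.53 and -1.79 in the mimic, -2.17 and -1.54 in the control-miRNA, -1.87 and -2.44 in the IRI and -0.77 and -1.04 in the sham kidneys. The 3 injured groups overlapped each other and all lay below sham. The differences from sham were -1.26 ± 0.34 in mimic, -0.95 ± 0.34 in control-miRNA and -1.25 ± 0.34 in IRI kidneys. The second probe, A_55_P2752088, gave -3.86 and -3.31 in the mimic, -2.20 and -2.09 in the control-miRNA, -3.17 and -2.79 in the IRI and -2.02 and -1.19 in the sham kidneys. It kept both sham kidneys highest and set the mimic kidneys 1.44 below the control-miRNA kidneys, against 0.30 by the first probe. The third probe was well above background on 3 of 8 arrays, both sham arrays and control-miRNA mouse 5. With brightness as a covariate the Per3 difference by the first probe was -0.75 in IRI against sham and -2.54 in mimic against sham.

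The promoter window of Per3, at chr4:151044616-151044915 on the minus strand, is shown because it held the only D-box matches among the clock genes, in capitals at 205 and 158 bases before the start.
Per3: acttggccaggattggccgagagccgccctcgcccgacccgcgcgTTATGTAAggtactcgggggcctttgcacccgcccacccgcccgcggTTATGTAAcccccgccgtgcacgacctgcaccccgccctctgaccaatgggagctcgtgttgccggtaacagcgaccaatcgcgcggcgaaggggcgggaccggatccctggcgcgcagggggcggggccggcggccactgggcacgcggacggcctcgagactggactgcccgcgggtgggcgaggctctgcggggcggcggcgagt

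Cry1 and Cry2 encode the cryptochromes, the strongest repressors of BMAL1 and CLOCK. Both usable Cry1 probes are on the minus strand of mm9, at chr10:84647094-84647153 and chr10:84594731-84594790, and start at bases 646 and 2670 of NM_007771. They are shown because they differ in base composition and in what they measured: 60.0% of the bases of the first are G or C, against 23.3% of the second.
A_55_P2880103: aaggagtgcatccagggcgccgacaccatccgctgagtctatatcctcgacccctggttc
A_52_P420500: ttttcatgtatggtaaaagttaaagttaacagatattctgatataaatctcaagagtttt

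The first Cry1 probe gave -1.89 and -2.37 in the mimic, -2.26 and -2.23 in the control-miRNA, -3.33 and -3.84 in the IRI and -4.32 and -3.47 in the sham kidneys. The 4 injected kidneys lay above the 4 others, and within each of these pairs of groups the mice overlapped. The difference was 1.46 ± 0.33 (SE, n = 2 each) in mimic over IRI and 1.34 ± 0.33 in control-miRNA over IRI. It was 0.12 ± 0.33 in mimic over control-miRNA and 0.31 ± 0.33 in IRI over sham. Over the 15 alternative fits the Cry1 difference ran from 0.46 to 1.89 in mimic over IRI and from 0.81 to 1.60 in control-miRNA over IRI. In mimic over control-miRNA it ran from -1.01 to 0.45. The Cry1 level had a correlation of -0.51 with array brightness. The second probe was well above background only in the control-miRNA kidneys, at -3.72 and -4.50, and not in any mimic, IRI or sham kidney. It thus passed the background filter through the control-miRNA group alone. The lowest level called well above background on the mimic arrays was -4.22 and -3.92, and the -4.50 of control-miRNA mouse 5 lay below both. The flags of this probe therefore cannot show whether mimic and control-miRNA kidneys differed. By the first probe both groups were at like levels.

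The promoter window of Cry1, at chr10:85185005-85185304 on the minus strand, is shown because it held an E-prime box and an E-box, in capitals at 79 and 60 bases before the start. The E-prime box is read here on the other strand, as AACGTG.
Cry1: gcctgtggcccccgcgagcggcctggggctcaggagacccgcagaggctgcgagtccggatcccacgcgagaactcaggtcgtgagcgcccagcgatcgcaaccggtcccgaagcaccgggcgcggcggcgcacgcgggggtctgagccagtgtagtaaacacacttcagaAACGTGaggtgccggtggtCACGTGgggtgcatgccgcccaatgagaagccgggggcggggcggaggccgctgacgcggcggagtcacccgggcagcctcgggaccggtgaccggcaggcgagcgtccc

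Cry2 gave 0.67 and 0.80 in the mimic, 1.83 and 1.60 in the control-miRNA, 1.28 and 1.16 in the IRI and 1.48 and 2.25 in the sham kidneys by its brightest probe. The mimic kidneys were lowest, then the IRI kidneys, while control-miRNA and sham kidneys overlapped. The difference was -0.98 ± 0.26 (SE, n = 2 each) in mimic against control-miRNA and -1.13 ± 0.26 in mimic against sham. The other 2 Cry2 probes did not share this pattern: in mimic against control-miRNA they gave 0.35 and 0.20, and their r with the brightest probe was -0.14 and 0.17. By A_55_P2721990 the 6 injured kidneys, from -3.01 to -2.31, were all below the sham kidneys at -1.44 and -2.11. With the mean over the 3 probes Cry2 differed by -0.14 between mimic and control-miRNA kidneys.

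Nr1d1 encodes REV-ERBα, the nuclear receptor that represses Arntl. Its only probe gave -2.30 and -2.36 in the mimic, -3.32 and -1.55 in the control-miRNA, -0.53 and -0.54 in the IRI and 0.31 and -0.05 in the sham kidneys. The 4 injected kidneys were lowest, the IRI kidneys lay between, and the sham kidneys were highest. The difference was -1.80 ± 0.51 (SE, n = 2 each) in mimic against IRI and -1.90 ± 0.51 in control-miRNA against IRI, or 3.47-fold and 3.73-fold lower. IRI kidneys were 0.67 ± 0.51 lower than sham (a difference of -0.67). Mimic and control-miRNA kidneys differed by 0.10 ± 0.51, and the control-miRNA mice were 1.76 apart. Without control-miRNA mouse 1 the control-miRNA against IRI difference was -1.02, and without mouse 5 it was -2.78. Over the 15 alternative fits, brightness as a covariate among them, the Nr1d1 difference in mimic against IRI ran from -3.16 to -1.14. In mimic against sham it ran from -3.44 to -1.70, and in mimic against control-miRNA from -0.95 to 0.99.

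The promoter window of Nr1d1, at chr11:98775328-98775627 on the minus strand, held an E-prime box 28 bases before the start, shown in capitals as read on the other strand. Per1 also had an E-box and Cry2 an E-prime box, each 166 bases before the start, and no pattern matched in the windows of Clock, Npas2 and Dbp.
Nr1d1: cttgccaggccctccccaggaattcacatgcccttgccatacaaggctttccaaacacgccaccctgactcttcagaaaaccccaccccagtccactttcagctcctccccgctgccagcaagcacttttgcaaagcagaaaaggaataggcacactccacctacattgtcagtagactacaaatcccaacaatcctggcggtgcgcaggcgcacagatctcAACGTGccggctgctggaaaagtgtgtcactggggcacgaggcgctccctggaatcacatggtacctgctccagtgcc

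Dbp encodes an activator of D-box genes, and its transcript swings widely over the day in mouse tissues. Its brightest probe gave 1.27 and 3.05 in the mimic, 2.96 and 4.21 in the control-miRNA, 4.49 and 4.83 in the IRI and 5.30 and 6.14 in the sham kidneys. The sham kidneys were highest and the IRI kidneys next, and the mimic and control-miRNA kidneys overlapped below them. Mimic kidneys were 11.8-fold lower than sham, a difference of -3.56 ± 0.65 (SE, n = 2 each), control-miRNA kidneys differed from sham by -2.14 ± 0.65 and IRI kidneys by -1.06 ± 0.65. In mimic against control-miRNA the difference was -1.42 ± 0.65, and it was -0.53 without mimic mouse 6 and -2.31 without mimic mouse 7. A second Dbp probe on another stretch of the transcript followed the first over the 8 arrays (r = 0.99), with 0.90 and 2.90 in the mimic, 2.94 and 3.72 in the control-miRNA, 4.04 and 4.42 in the IRI and 5.07 and 5.97 in the sham kidneys. With brightness as a covariate the difference of mimic from sham was -4.77, larger than without it. Over the 15 alternative fits the Dbp difference ran from -4.18 to -1.61 in mimic against IRI. In mimic against control-miRNA it ran from -2.72 to -0.53.

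**Figure D3:**
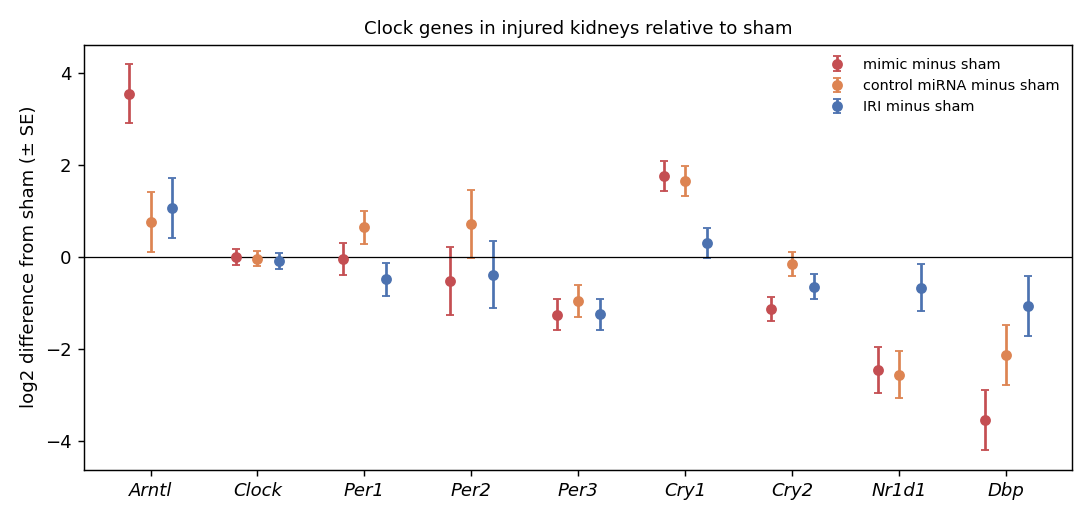
Log2 difference from sham (vertical axis, ± moderated SE) of the 9 clock genes, with mimic, control miRNA and IRI side by side, 2 mice per group. Arntl stands at 3.56 in mimic against 0.77 and 1.07 in the other injured groups, Nr1d1 and Dbp step down in the injected groups, and Clock lies at 0 in all 3.

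Across the 8 arrays Nr1d1 and Dbp ran together (r = 0.83), and Cry1 ran against both, with r of -0.88 with Nr1d1 and -0.81 with Dbp. Arntl ran against Dbp (r = -0.85) and Cry2 (r = -0.88), and less against Nr1d1 (r = -0.54). The 8 arrays share 1 slide, form 4 groups and differ in brightness, so these values describe the arrays only. Among 13158 genes above background on all arrays, the transcripts most like Arntl were Hivep1 (r = 0.99), Chrnb4 and Kif3b, and those most like Dbp were Tvp23b (r = 0.98), Hscb and Fmo1. Those most like Nr1d1 were Pet100 (r = 0.99), Chchd5 and Spink1, and those most like Per3 were Vcan (r = 0.97), Ube4a and Aftph.

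In the fit over all genes, the adjusted p was at most 0.05 in IRI against sham for 18.3% of genes, 9.45% higher and 8.85% lower. In control-miRNA against sham it was so for 17.3%, 9.55% higher and 7.79% lower. In mimic against sham it was so for 28.0%, 15.2% higher and 12.8% lower. In mimic against IRI it was so for 16.0%, 10.5% higher and 5.53% lower. With limma 0% of genes were called in mimic against control-miRNA and 0% in control-miRNA against IRI, where 7188 and 870 genes had an unadjusted p under 0.05. Without mimic mouse 6, 6318 genes passed in mimic against control-miRNA. The 9 clock genes were chosen with these contrasts known, so no call is given for them. The 3 contrasts against sham share the same 2 sham mice. Against sham, the median difference over the 9 genes was -0.52 in mimic kidneys, -0.03 in control-miRNA kidneys and -0.49 in IRI kidneys, where that over all genes was 0.11, -0.05 and -0.08. All 6 injured kidneys lay below both sham kidneys for 3 of the 9 clock genes and for 17.7% of all genes, and above them for 0 of the 9 and 17.9% of all genes. The 4 injected kidneys lay below the 4 others for 2 of the 9 and for 2.89% of all genes, and above them for Cry1 and for 3.28% of all genes.

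The other genes of the clock were taken as a list of 20, of which 18 were tested. This list, like the other gene lists used here, was drawn up with earlier results of these data known. Its counts, and those of the kidney and glucocorticoid lists below, are therefore a description. In IRI against sham kidneys 5 rose and 7 fell (limma, adjusted p at most 0.05), beside 18.3% of all genes called. The median difference of the 18 was -0.55, where that of all genes was -0.08. Those that rose included the repressors Nfil3, which competes with DBP for D-boxes, and Bhlhe40, which competes for E-boxes. Timeless, Csnk1d and Csnk1e rose as well. Those that fell included Hlf and Tef, the 2 relatives of Dbp in the PAR bZIP family, and Nr1d2, which encodes REV-ERBβ. Usp2, a deubiquitinase, and Btrc and Fbxl21, F-box proteins of the ligases that act on clock proteins, also fell.

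Nfil3 was 0.70 and -0.47 in the mimic, 1.05 and 0.33 in the control-miRNA, 0.52 and 0.78 in the IRI and -1.43 and -1.71 in the sham kidneys, and all injured kidneys were above sham. Its difference in IRI against sham was 2.22 ± 0.41 (limma, adjusted p = 0.0146). Hlf was 0.33 and 1.39 in the mimic, 0.77 and 0.91 in the control-miRNA, 0.63 and 0.60 in the IRI and 2.30 and 2.46 in the sham kidneys. It fell by 1.76 ± 0.32 in IRI against sham (limma, adjusted p = 0.0144), and all 6 injured kidneys were below both sham kidneys. Usp2 was 2.25 and 3.58 in the mimic, 3.62 and 3.33 in the control-miRNA, 2.20 and 2.04 in the IRI and 4.01 and 4.44 in the sham kidneys. It fell by 2.10 ± 0.42 in IRI against sham (limma, adjusted p = 0.0181), and both mimic mice and both control-miRNA mice lay between IRI and sham. Btrc fell by 1.39 ± 0.29 (limma, adjusted p = 0.0221). Fbxl21 was well above background in sham kidneys only, so it passed the background filter through sham alone. The filter thus set its direction, and its place in the counts of genes that fell against sham is not a test of it. It was at least 2.75-fold lower in IRI than in sham kidneys. This bound sets the sham mean against the lowest signal called well above background on the IRI arrays, or the probe's own where that was higher. Bhlhe40 was 1.72 and 1.19 in the mimic, 1.76 and 1.95 in the control-miRNA, 2.25 and 2.52 in the IRI and 1.34 and 1.47 in the sham kidneys. Its rise in IRI against sham was 0.98 ± 0.23 (limma, adjusted p = 0.0290), and it was 0.93 ± 0.23 lower in mimic than in IRI kidneys (a difference of -0.93, limma, adjusted p = 0.0435).

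**Figure D4:**
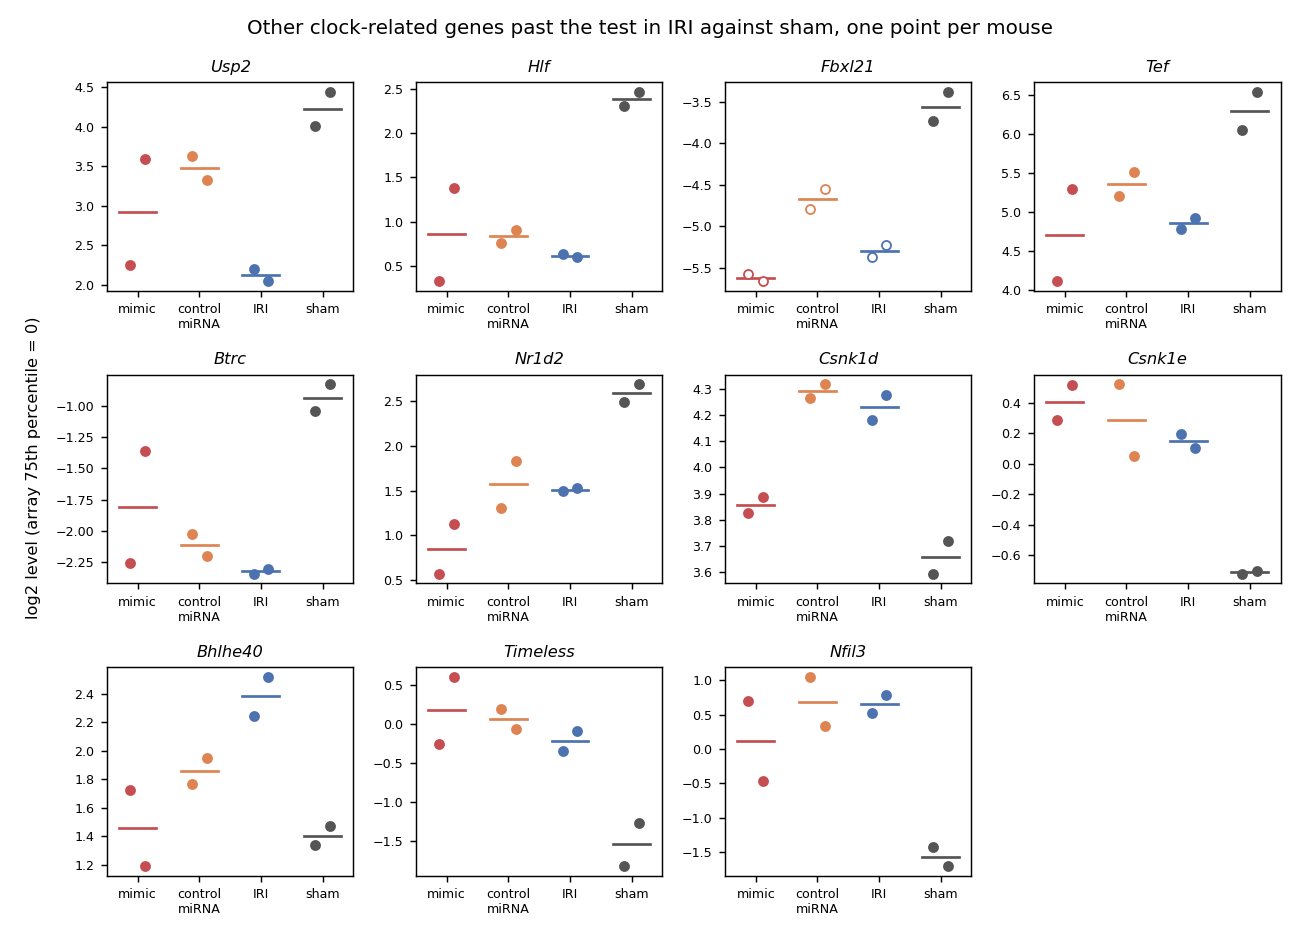
Log2 level (array 75th percentile = 0) of 11 of the 12 other clock-related genes past the threshold in IRI against sham, with 1 point per mouse and a bar at the mean of 2 mice, groups running mimic, control miRNA, IRI and sham. Open points are not well above background, and each panel has its own vertical scale; 6 of the genes drawn are lower and 5 higher in both IRI kidneys than in both sham kidneys.

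In control-miRNA against sham kidneys 4 of the 18 rose and 4 fell, with a median of -0.03, beside 17.3% of all genes called. In mimic against sham 4 rose and 6 fell, with a median of -0.60, beside 28.0% of all genes called. In mimic against IRI 1 rose, Arntl2, a paralogue of Arntl, and 1 fell, Bhlhe40, beside 16.0% of all genes called. Arntl2 was -0.40 and -0.39 in the mimic, -1.39 and -1.18 in the control-miRNA, -0.99 and -1.64 in the IRI and -1.88 and -2.03 in the sham kidneys. It was 0.92 ± 0.24 higher in mimic than in IRI kidneys (limma, adjusted p = 0.0469), and like Arntl it was highest in both mimic kidneys. Of the 18 genes 0 passed in mimic against control-miRNA with limma, as did 0 of all genes. An unadjusted p under 0.05 was found for 7 of the 18, beside 7188 of all 21264 genes. Arntl2 differed there by 0.89 ± 0.24 (limma, adjusted p = 0.0708). The counts rest on few mice. In IRI against sham the count of 12 was 1 without either sham mouse or either IRI mouse, and it was 2 with brightness as a covariate. In control-miRNA against sham the count of 8 was 1 without sham mouse 1, 0 without sham mouse 4 or control-miRNA mouse 1, 4 without control-miRNA mouse 5 and 5 without either IRI mouse. In mimic against sham the count of 10 was 5 without sham mouse 1, 2 without sham mouse 4 and 0 with brightness as a covariate. In mimic against IRI the count of 2 was 6 without mimic mouse 6, and it was 0 without any other mouse and with brightness as a covariate.

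Genes reported to follow the clock in the kidney were taken as a list of 15, all of which were tested. In IRI against sham 3 rose and 2 fell, with a median of -0.34, beside 18.3% of all genes called. Those that rose were Edn1, which encodes endothelin 1, Tspan4, and Alas1, the first enzyme of haem synthesis. Edn1 rose by 2.28 ± 0.17 (limma, adjusted p = 0.000983), with -1.61 and -1.57 in the mimic, -1.51 and -1.60 in the control-miRNA, -1.28 and -1.02 in the IRI and -3.51 and -3.33 in the sham kidneys. Those that fell were Wnk1, a kinase that controls distal salt transport, by 1.21 ± 0.21 (limma, adjusted p = 0.0113), and Tsc22d3, which encodes GILZ, by 1.20 ± 0.31 (limma, adjusted p = 0.0392). Scnn1a, the α subunit of the epithelial sodium channel, differed by -0.76 ± 0.23 (limma, adjusted p = 0.0626). In control-miRNA against sham 4 rose and 1 fell, beside 17.3% of all genes called. In mimic against sham 2 rose and 3 fell, beside 28.0% of all genes called. In mimic against IRI Nampt, the enzyme of NAD salvage, fell by 1.55 ± 0.38 (limma, adjusted p = 0.0443), a call that the fit kept without mimic mouse 6 and lost without any other mouse. With brightness as a covariate the Nampt difference turned to 0.48. The count of 5 in IRI against sham was 1 without either sham mouse or without IRI mouse 30, 2 without IRI mouse 34 and 8 without either mimic mouse. It was 10 (3 higher, 7 lower) with only the IRI and sham arrays in the fit, and 3 with no background filter or with brightness as a covariate. In control-miRNA against sham the count of 5 was 1 without either sham mouse, 2 without control-miRNA mouse 1 and 8 without either mimic mouse. In mimic against sham the count of 5 was 2 without either sham mouse, 3 without any 1 IRI or control-miRNA mouse, 8 without mimic mouse 7 and 0 with brightness as a covariate. In mimic against control-miRNA 0 of the 15 passed with limma. Of the 15, 8 had an unadjusted p under 0.05, beside 7188 of all 21264 genes. With normexp 9 of the 15 passed (1 higher, 8 lower), where the count over all genes, given below, rose from 0 as well. Proximal tubule markers, given above, moved with injury as well, 11 of 15 called lower in IRI against sham, beside 8.85% of all genes. Distal tubule and collecting duct markers did too, 6 of 13 called lower (Pvalb, Slc12a1, Slc4a1, Calb1, Kcnj1 and Aqp3) and Scnn1b higher. Their mean log2 level was 0.93 and 1.67 in the mimic, 1.23 and 1.31 in the control-miRNA, 1.02 and 1.25 in the IRI and 2.37 and 2.40 in the sham kidneys, and 3 of the 13, Aqp2, Avpr2 and Slc12a3, are on the kidney list too. Scnn1b passed the background filter through the IRI and control-miRNA kidneys alone and was well above background in no sham kidney. The filter thus set its direction against sham, and its call is not a test of it. The part of the tubule and collecting duct cells in the counts was not tested.

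Glucocorticoids, the adrenal steroids with a daily peak, reset the clocks of peripheral tissues and induce Per1. A list of 12 glucocorticoid-responsive genes was tested whole, and it shares Sgk1 and Tsc22d3 with the kidney list. In IRI against sham kidneys 3 rose and 3 fell, with a median of -0.15, beside 18.3% of all genes called. Those that rose were the metallothioneins Mt2, by 3.81 ± 0.35 (limma, adjusted p = 0.00163), and Mt1, and the transcription factor Cebpd, by 2.96 ± 0.32 (limma, adjusted p = 0.00266). The metallothioneins also answer metals, and Cebpd inflammation. Those that fell were Sult1a1, a sulfotransferase, Klf9, a glucocorticoid-induced factor that is itself rhythmic, and Tsc22d3. Klf9 fell by 1.06 ± 0.18 (limma, adjusted p = 0.0107). The count of 6 was 3 without sham mouse 4 or either IRI mouse.

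In control-miRNA against sham 6 rose and 0 fell, beside 17.3% of all genes called. The median was 1.21, where that of all genes was -0.05. Beside Mt2, Mt1 and Cebpd, which rose in IRI against sham too, these were Fkbp5, Zbtb16 and Sgk1, named because they make up the count. Nr3c1 (-0.74), Klf9 (-0.61) and Sult1a1 (-0.19) differed the other way. Tsc22d3 (0.44), Errfi1 (0.36) and Dusp1 (0.05) were higher without passing. In control-miRNA against IRI 0 of the 12 passed with limma, and 8 had an unadjusted p under 0.05, beside 870 of all 21264 genes. Fkbp5, which encodes a brake on the glucocorticoid receptor, was 3.24 and 2.77 in the mimic, 4.95 and 4.18 in the control-miRNA, 3.55 and 2.78 in the IRI and 2.43 and 2.45 in the sham kidneys. It rose by 2.13 ± 0.35 in control-miRNA against sham (limma, adjusted p = 0.0113). Zbtb16, a zinc finger factor, was -0.31 and -0.37 in the mimic, 1.81 and 1.56 in the control-miRNA, 0.22 and -1.40 in the IRI and -0.57 and -0.54 in the sham kidneys. It rose by 2.24 ± 0.47 (limma, adjusted p = 0.0222), and both control-miRNA kidneys were highest for both genes. The count of 6 was 3 without either sham mouse or without control-miRNA mouse 1.

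In mimic against control-miRNA the difference was below 0 for 11 of the 12 genes, with a median of -1.04, where that of all genes was 0.07. With limma 0 of them passed, and 8 had an unadjusted p under 0.05, beside 7188 of all 21264 genes. Fkbp5 differed by -1.57 ± 0.35 and Zbtb16 by -2.03 ± 0.47, each with an adjusted p of 0.0662 (limma). With normexp 8 of the 12 passed, all lower in mimic, where the count over all genes, given below, rose from 0 as well. In mimic against sham 3 rose and 3 fell (0 in all with brightness as a covariate), beside 28.0% of all genes called. In mimic against IRI Cebpd fell by 1.49 ± 0.32 (limma, adjusted p = 0.0387), a call kept without mimic mouse 6 and lost without any other mouse. Per1 levels, given above, were likewise highest in both control-miRNA kidneys, and whether steroid levels differed between the mice was not tested.

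**Figure D5:**
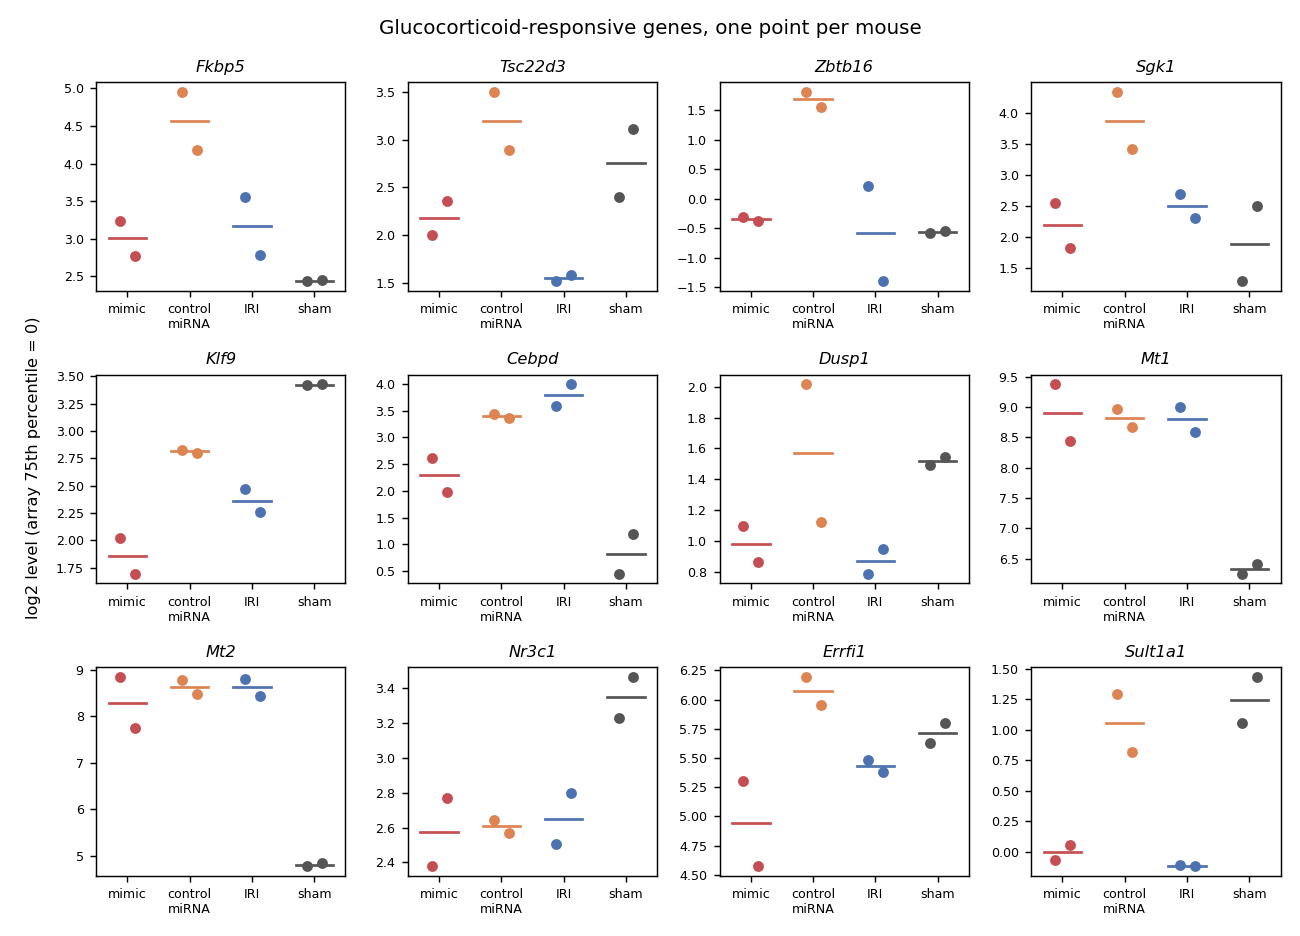
Log2 level (array 75th percentile = 0) of the 12 glucocorticoid-responsive genes, with 1 point per mouse and a bar at the mean of 2 mice, groups running mimic, control miRNA, IRI and sham. Each panel has its own vertical scale; Fkbp5, Zbtb16 and Sgk1 are highest in both control-miRNA kidneys, and Mt1, Mt2 and Cebpd are higher in every injured kidney than in sham.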

How the data were processed

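Total RNA from 30 mg of left kidney of 8 mice was labelled with Cy3 and read on 1 array each, per the labels' protocols. The authors deposited the scanner output; the submitters' processing notes name Agilent Feature Extraction 12.0.3.1. In it the processed signal is a background-subtracted intensity not scaled between arrays, and quality flags of 0 or 1 stand beside it, per the file headers. The authors also deposited a ratio per probe, centred on the probe's median over arrays as the values show, with unknown scaling before that; it was used only as an alternative, and its median was between 0.992 and 1.02 on each array.

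Gene names came from RefSeq accessions for 33767 probes, from current symbols for 9866, from older symbols for 310 and from the files for 12662. Outlier spots (79 to 127 per array) were left out. The brightest of a gene's kept probes by mean level over the arrays stood for it. limma 3.58.1 (R 4.3.3) fitted group means over 8 arrays, and Benjamini-Hochberg adjustment ran over 21264 genes, after the fit was tested on simulated data. All arrays shared 1 slide and 1 scan time. With 2 mice per group p-values rest on few animals.

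The 10 clock genes, the other lists and the rule for named genes (up to 6 per list by smallest p in IRI against sham, and any gene called in a comparison without sham) were chosen with earlier results of these data known. Tef, Nr1d2, Timeless, Csnk1d, Csnk1e, Fkbp5, Zbtb16 and Sgk1 fall outside that rule and were named after their values were seen. One gene that is part of the count of other clock genes is not reported here by name or value. Alternatives were normexp with an offset of 50, quantile scaling, no background filter, brightness as a covariate, the deposited ratios, the mean over probes, only the arrays compared, and leaving out each mouse; those for the kidney and glucocorticoid lists were added after seeing the data.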

Additional observations from a re-analysis of the deposited data

How the results depend on the processing

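No paired analysis was run, because nothing in the labels pairs the mice of different groups. With 2 mice a group and clock signals near background, calls depend on the setting. Leaving out a mouse or fitting only the arrays compared leaves fewer samples; for the other settings the cause was not tested. Among the called differences of the genes in the 4 clock, kidney and glucocorticoid lists, only that of Nampt in mimic against IRI turned sign, to 0.48 with brightness as a covariate.

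For IRI against sham, 3891 genes passed, against 2450 with no background filter, 1857 with brightness as a covariate, 6785 with only the arrays compared and 801 to 5956 with a mouse left out. Of the other clock genes 12 passed, against 6 with no filter, 2 with the covariate and 1 to 14 with a mouse left out. For control-miRNA against sham, 3687 genes passed, against 2279 with no filter and 694 to 5722 with a mouse left out, and 8 other clock genes, against 5 and 0 to 12. For mimic against sham, 5964 genes passed, against 3853 with no filter, 115 with the covariate, 3039 with only the arrays compared and 1100 to 7339 with a mouse left out. The 10 other clock genes became 0 with the covariate, 6 with only the arrays compared and 2 to 12 with a mouse left out.

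For mimic against control-miRNA, 0 genes passed, against 5782 with normexp and 0 to 6318 with a mouse left out (6318 without mimic mouse 6), and 0 other clock genes, against 4 and 0 to 3. For mimic against IRI, 3409 genes passed, against 10344 with normexp, 2227 with quantile scaling, 11947 with no filter, 0 with the covariate, 0 with only the arrays compared and 0 to 7545 with a mouse left out. The 2 other clock genes became 7 with normexp, 0 with quantile scaling, 0 with the covariate, 0 in the deposited ratios, 0 with only the arrays compared and 0 to 6 with a mouse left out.

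The median difference of the 9 clock genes in control-miRNA against sham was 0.29 with the mean over probes, and in mimic against sham -0.86 with the covariate. In mimic against control-miRNA it was -0.018 with normexp, -0.56 with quantile scaling, -0.89 with the covariate, -0.56 in the deposited ratios and -0.62 with the mean over probes. In mimic against IRI it was -0.36 and in control-miRNA against IRI -0.046 with the covariate. With a mouse left out it was -0.98 to -0.22 in IRI, -0.08 to 0.10 in control-miRNA and -1.20 to 0.10 in mimic against sham. Likewise it was -0.77 to 0.013 in mimic against control-miRNA, -0.37 to 0.36 in mimic against IRI and 0.012 to 0.55 in control-miRNA against IRI.

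Of the 15 kidney genes, 5 passed in mimic against sham, against 3 with quantile scaling, no filter or only the arrays compared and 2 with the mean over probes. For mimic against IRI 1 passed, against 3 with normexp, 2 with no filter and 0 with quantile scaling, the covariate, the deposited ratios or only the arrays compared. Of the 12 glucocorticoid genes 1 passed there, against 2 with normexp or the mean over probes and 0 with the covariate or only the arrays compared.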
